A study of Mus musculus with 12 samples.

Results

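The immunity-related GTPases are a family of GTP-hydrolysing proteins that mouse cells make in response to interferon. The rows of the deposited count table with the symbols Irgm1, Irgm2, Igtp, Iigp1, Tgtp1 and Tgtp2 were taken, the first row per Ensembl gene. All 6 genes had a row, of 15140 genes in the table, and all 6 passed the filter on low counts, which kept 15000 genes. They were set side by side in 12 liver libraries of male mice: 6 from mice labelled Phb1 KO, in which prohibitin 1 had been deleted in adipocytes (KO), and 6 from mice labelled WT. Every mouse, KO and WT, ate a high-fat diet (60 kcal% fat) for 3 months from 7 to 8 weeks of age, and no other diet was analysed here. The study's title names steatosis, inflammation and fibrosis of the liver once fat cells lack this mitochondrial scaffold protein. The sources used here give neither the driver of the deletion nor the floxed or Cre status of the WT mice, and they tie no library to an animal. The p-values thus rest on the spread among libraries, which may be technical.

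In the mouse the family has regulators and effectors. Irgm1, Irgm2 and Igtp are the regulators: they sit on endomembranes and lipid droplets and hold the effectors in an inactive, GDP-bound state. Iigp1, Tgtp1 and Tgtp2 are effectors that load onto the vacuoles of intracellular parasites and bacteria and break them, a step that needs the autophagy conjugation proteins. Interferon gamma turns the genes on in part through the transcription factor IRF1, and mouse liver is also known for making Iigp1 without infection, from a promoter of its own.

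The promoters are shown because all members had fold changes of one sign and because the family is built of copies, which bears on how reads can be assigned. RefSeq's promoter table (GRCm38.p6, 250 bases before to 50 after each start) held 5 of the 6 members, Iigp1 not among them. A stretch of 60 bases of each is printed 5′ to 3′ on the gene's strand. Capitals mark the core of the interferon-stimulated response element (GAAA, then 2 bases of any kind, then GAAA) and TTCNNNGAA, the core of the interferon gamma-activated site.
Irgm1, chr11:48871421-48871480, minus strand: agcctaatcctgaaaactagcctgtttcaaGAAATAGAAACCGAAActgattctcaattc
Irgm2, chr11:58214883-58214942, plus strand: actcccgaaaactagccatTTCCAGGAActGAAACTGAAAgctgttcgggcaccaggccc
Igtp, chr11:58199492-58199551, plus strand: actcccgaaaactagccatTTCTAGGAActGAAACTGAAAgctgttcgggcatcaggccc
Tgtp1, chr11:48992294-48992353, minus strand: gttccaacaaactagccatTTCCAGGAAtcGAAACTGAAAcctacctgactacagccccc
Tgtp2, chr11:49064253-49064312, minus strand: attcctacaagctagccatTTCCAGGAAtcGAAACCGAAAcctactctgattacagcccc

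All 5 promoters held the response element core, against 3.44% of the 32841 promoters of 300 bases in the table, both strands searched. Irgm1 held a pair of overlapping copies and no TTCNNNGAA, which was found in 8.3% of all promoters. In Irgm2, Igtp, Tgtp1 and Tgtp2 the TTCNNNGAA motif ended 2 bases before the response element core, and the motifs did not overlap. The response element cores of the 5 promoters lay at positions -77 to -15 from the RefSeq starts. A short stretch of bases after the RefSeq start was found in the GENCODE M21 transcripts of Irgm1, Igtp, Tgtp1 and Tgtp2 but not in those of Irgm2, whose RefSeq start lies inside the span that GENCODE gives the gene. Elsewhere that core was in 5 of 5 guanylate-binding protein genes with a promoter in the table, in 11 of 17 targets of type I interferon, in 3 of 7 other family genes and in 3 of 15 targets of interferon gamma. The joint arrangement was searched for after the sequences had been read. It occurred in 5 promoters of 27018 genes (0.0152% of promoters), which were those 4 and Gm12185, another gene of the family. The promoters are not independent cases, since the stretches of Irgm2 and Igtp shared 58 of 60 bases, and those of Tgtp1 and Tgtp2 shared 46 of 60. A match is a description of letters, and binding of a factor was not measured.

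By GENCODE M21 (GRCm38), 5 members lie in 2 clusters on chromosome 11. Irgm1 (48861968 to 48871683), Tgtp1 (48985327 to 48994172) and Tgtp2 (49057194 to 49064206) are on the minus strand, and Igtp (58199556 to 58207591) and Irgm2 (58199618 to 58222782) on the plus strand. Iigp1 stands apart on chromosome 18 (60376027 to 60392634, plus strand). The annotated span of Irgm2 encloses nearly all of Igtp, since an annotated Irgm2 transcript begins within the first exon of Igtp, and the genes share 162 exonic bases, 8.01% of Igtp and 4.39% of Irgm2. How overlapping and multiply mapped reads were counted is unknown here. Of all stretches of 50 bases in their transcripts, 81.2% in Tgtp1 and 86.6% in Tgtp2 also occurred in another gene, mostly in each other, against 11.8% in Igtp, 7.83% in Irgm2, 1.69% in Iigp1 and 0.379% in Irgm1. Counts of Tgtp1 and Tgtp2 are therefore uncertain one by one.

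Total counts ran from 34121087 to 37973022 per KO library and from 30348123 to 40828767 per WT library (exact two-sided permutation test of the difference in means, p = 0.742). None of the 30 within-group pairs looked like a library deposited again (chi-square over degrees of freedom, 38.5 to 245). Levels are given as CPM, counts scaled to a common library size with TMM factors. All 10 hepatocyte markers were measured, at a summed 68072 to 93129 CPM in KO and 63825 to 95659 CPM in WT, and 1 of them, Tat, was called higher in KO. Phb, the gene deleted in fat cells, had 88.6 to 100.4 CPM in KO livers and 80.0 to 91.2 CPM in WT livers, a tissue in which its level does not check the genotype labels. In whole liver, fewer cells of a type and less RNA per cell cannot be told apart.

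All 6 immunity-related GTPase genes had a lower mean level in KO livers, and 3 fell by the edgeR quasi-likelihood test with Benjamini-Hochberg adjusted p under 0.05 over all genes: the regulators Irgm2 and Igtp and the effector Iigp1. No member was called higher. Among all 15000 genes, 2.64% were called, 1.49% lower and 1.15% higher in KO, 49.4% had a negative fold change, and the median log2 fold change was 0.00. The median log2 fold change of the 6 members was -0.73. The number of calls, of members and of all genes, changed when some single libraries were left out. Without KO library 6, WT library 2 or WT library 4, 0 members passed (edgeR, with 6, 6 and 5 members at an unadjusted p under 0.05). Of all genes 86, 46 and 25 were called in these fits, against 396 in the main test. At an unadjusted p under 0.05 these fits held 2616, 2613 and 2519 of all genes (edgeR). The main test held 6 members and 3184 of 15000 genes there. Without WT library 5 Irgm2 and Igtp passed (89 of all genes), and without WT library 6 there were 5 members (700 of all genes), with Irgm1 and Tgtp1 added. On leaving out 1 of KO libraries 1 to 5, WT library 1 or WT library 3, 3 or 4 members passed (235 to 397 of all genes). With any 1 library left out, the edgeR Benjamini-Hochberg adjusted p was at most 0.0569 for Irgm2, 0.0576 for Igtp and 0.0611 for Iigp1. The log2 fold changes themselves stayed negative in all 20 alternative settings for each of the 6 members. These settings reuse the same libraries. The value nearest to 0 was -0.01 for Tgtp2, with a score of macrophage markers as a covariate.

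**Figure D1:**
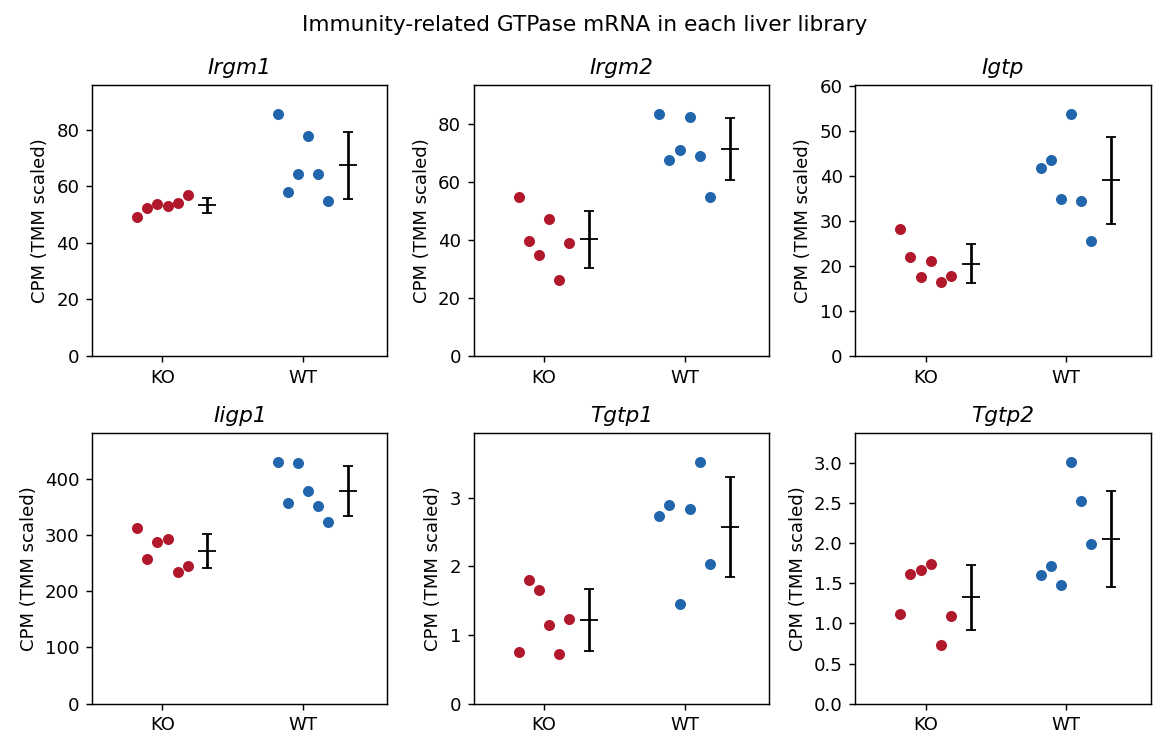
Level of each immunity-related GTPase gene (CPM, TMM scaled, linear axis from 0) in 6 KO and 6 WT liver libraries, 1 point per library in the order of the replicate numbers, with the mean and SD at the side. The KO points of Irgm2 and Iigp1 lie below all WT points, and those of the other 4 genes overlap with WT.

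Among the regulators, Irgm2 stood between 26.2 and 54.6 CPM in KO livers with a median of 39.2, against 54.8 to 83.3 CPM in WT livers with a median of 69.9. No KO library reached the lowest WT library, although KO library 1 and WT library 6 were close, at 54.6 and 54.8 CPM. The mean was 40.2 ± 9.79 CPM in KO and 71.3 ± 10.6 CPM in WT (SD, n = 6 each), with a log2 fold change of -0.83 ± 0.15 (SE; Benjamini-Hochberg adjusted p = 0.0212 by edgeR). Irgm2 and Iigp1 were the 2 of 6 members with every KO library below every WT library, as had 1.24% of all tested genes.

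Igtp, also known as Irgm3, had 16.4 to 28.2 CPM in KO livers (median 19.4) and 25.7 to 53.9 CPM in WT livers (median 38.5). KO library 1 was the only KO library above the lowest WT library, and the other 5 lay below all WT libraries. The mean was 20.5 ± 4.38 CPM in KO and 39.1 ± 9.65 CPM in WT (SD, n = 6 each), and the log2 fold change was -0.93 ± 0.17 (SE; edgeR, Benjamini-Hochberg adjusted p = 0.0208). With the counts of Irgm2 and Igtp summed, which does not depend on the gene of the pair that a read was given to, the log2 fold change was -0.86 ± 0.15 (SE; edgeR, Benjamini-Hochberg adjusted p = 0.0190).

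Irgm1, the regulator best known for control of mycobacteria, had the smallest log2 fold change of the 6. Its level was tightly grouped in KO livers, 49.1 to 56.9 CPM with a median of 53.4, and more spread in WT livers, 54.8 to 85.6 CPM with a median of 64.2. The ranges overlapped through KO library 6 (56.9 CPM) and WT library 6 (54.8 CPM). The log2 fold change was -0.34 ± 0.10 (SE; edgeR, Benjamini-Hochberg adjusted p = 0.0795), which did not pass. It passed with DESeq2 (Benjamini-Hochberg adjusted p = 0.0309) and without WT library 6 (edgeR, Benjamini-Hochberg adjusted p = 0.0356), over a range of adjusted p from 0.0309 to 0.412 across all settings.

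The log2 ratio of Igtp to Irgm1 within a library was -1.73 to -0.80 in KO livers (median -1.47) and -1.09 to -0.41 in WT livers (median -0.88). In KO, 5 of 6 libraries had a lower ratio than all WT libraries. The log2 ratio of Irgm2 to Igtp was 0.68 to 1.16 in KO (median 0.97) and 0.61 to 1.09 in WT (median 0.99). Irgm2 and Igtp share exonic bases, and the effect of that on the ratio was not tested. These ratios are given as values, and no test was made of them.

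Among the effectors, Iigp1 was the most abundant member. It had 233 to 312 CPM in KO livers (median 272) and 323 to 430 CPM in WT livers (median 368), without overlap. The mean was 272 ± 30.6 CPM in KO and 378 ± 43.7 CPM in WT (SD, n = 6 each), with a log2 fold change of -0.48 ± 0.10 (SE; Benjamini-Hochberg adjusted p = 0.0255 by edgeR). Its log2 ratio to Irgm1 was 2.11 to 2.67 in KO (median 2.36) and 2.28 to 2.74 in WT (median 2.50).

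Tgtp1 and Tgtp2 were rare as counted. Tgtp1 had 27 to 75 counts per KO library and 58 to 130 counts per WT library. This corresponds to 0.728 to 1.81 CPM in KO (median 1.19) and 1.45 to 3.52 CPM in WT (median 2.78). In KO, 4 of 6 libraries lay below all WT libraries, and KO libraries 2 and 3 lay above WT library 3. The log2 fold change of -1.07 ± 0.27 did not pass by a narrow margin (SE; edgeR, Benjamini-Hochberg adjusted p = 0.0507). It passed with DESeq2 (adjusted p = 0.00411), when genes under 1 CPM in more than 6 libraries were dropped (0.0456), and without KO library 2, KO library 3, WT library 3 or WT library 6, over a range of adjusted p from 0.00411 to 0.683 across all settings.

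Tgtp2 ran from 0.728 to 1.73 CPM in KO livers (median 1.36) and from 1.48 to 3.01 CPM in WT livers (median 1.85), with 3 of 6 KO libraries below all WT libraries. Its log2 fold change was -0.63 ± 0.25 (SE; edgeR, Benjamini-Hochberg adjusted p = 0.167). With the counts of Tgtp1 and Tgtp2 summed, the level was 2.54 ± 0.795 CPM in KO and 4.63 ± 1.17 CPM in WT (SD, n = 6 each), and the log2 fold change was -0.86 ± 0.23 (SE; edgeR, Benjamini-Hochberg adjusted p = 0.0617). How far unplaced reads lower both counts was not tested.

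**Figure D2:**
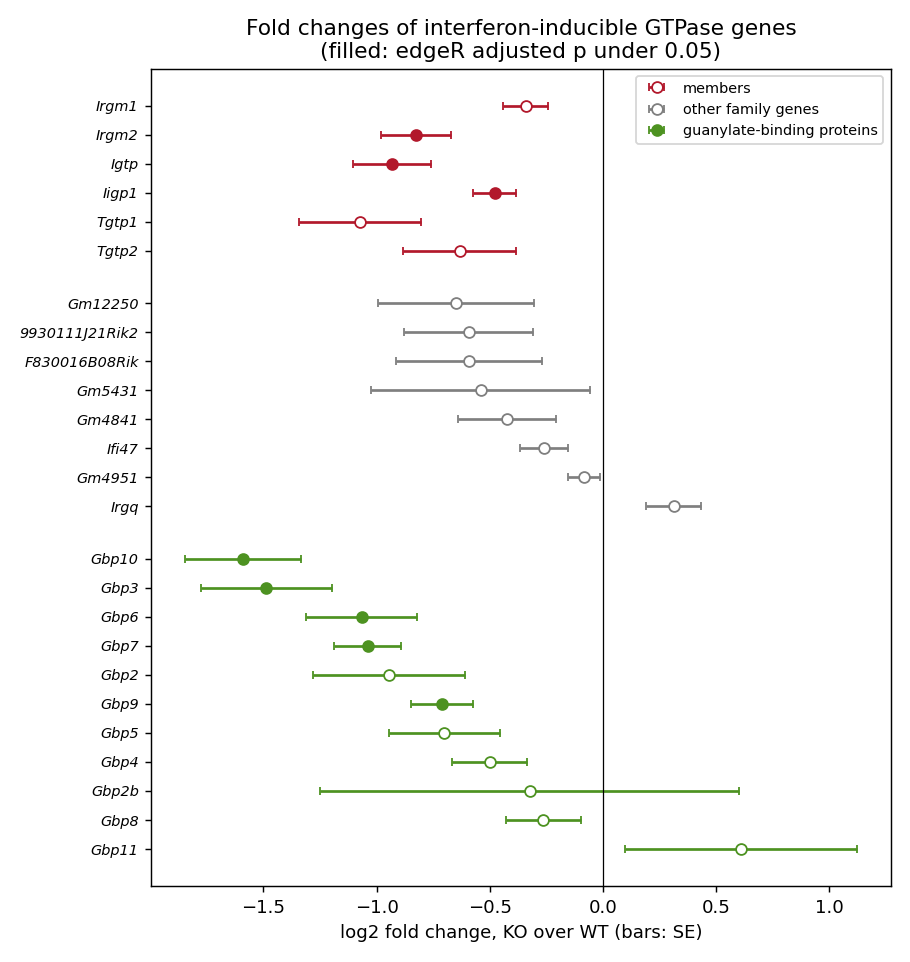
Log2 fold change of KO over WT with its SE for the 6 members, the 8 other family genes that were measured and 11 guanylate-binding protein genes, filled where the edgeR adjusted p was under 0.05. All 6 members lie left of 0, as do 7 of 8 other family genes and 10 of 11 guanylate-binding protein genes.

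Per length, the order of the mean levels differed between the groups for the pair Tgtp1 and Tgtp2 and for the pair Irgm2 and Igtp, whose means were nearly equal in WT. In CPM per kilobase of annotated exon, Iigp1 averaged 46.6 ± 5.26 in KO livers and 64.9 ± 7.50 in WT livers (SD, n = 6 each), far above the rest. Irgm2 had 10.9 ± 2.65 in KO and 19.3 ± 2.86 in WT. Igtp had 10.1 ± 2.17 in KO and 19.3 ± 4.77 in WT, and the levels of Irgm2 and Igtp differed by less than their spread in either group. Irgm1, at 9.16 ± 0.443 in KO and 11.6 ± 2.04 in WT, lay below both in WT and within their spread in KO. Tgtp1 (0.381 in KO, 0.803 in WT) and Tgtp2 (0.450 in KO, 0.699 in WT) came last, within each other's spread. The lengths join the exons of all transcripts of a gene, so levels of genes with several transcripts may be understated.

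The same libraries tended to be low or high for several members. KO library 5 was the lowest KO library for 5 of the 6 members, Irgm1 being the exception, and WT library 6 was the lowest WT library for 4 of 6. Across the 12 libraries, Pearson's r of log2 CPM between members ran from 0.47 to 0.94 over 15 pairs, a range that includes the difference between the groups. After the group means were removed it ran from -0.15 to 0.81, and 14 of 15 pairs were positive. Irgm2 followed Igtp (r = 0.81) and Iigp1 (r = 0.76) within the groups, and Tgtp1 followed Tgtp2 (r = 0.69), a pair that may share reads. All these points share library and depth, and the values are a description.

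The genes most like the mean of the 6 members, after removal of the group means, were picked by Pearson's r among 12875 genes that averaged 1 CPM or more. They were C2cd2 (r = 0.96), Pnpla8, which encodes a phospholipase (0.91), the zinc finger gene Zfp113 (0.90), Atg7, the activating enzyme of autophagy conjugation (0.88), and Serpina3g, a serine protease inhibitor gene (0.87), over 12 libraries each. None of these 5 was called between the groups: their log2 fold changes were -0.14, -0.14, -0.38, 0.00 and -0.80 (edgeR, Benjamini-Hochberg adjusted p = 0.285, 0.355, 0.249, 0.987 and 0.0725). The highest r of so many genes is high by selection.

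Among 11 other genes of the family that were looked for, 8 were in the table. Of these, 7 had a negative log2 fold change and none passed (edgeR, and also none with DESeq2 or limma-voom). At an unadjusted p under 0.05 (edgeR) there were 2, Ifi47 lower and Irgq higher in KO. Of all 15000 genes, 3184 stood under this cutoff. Ifi47, near Tgtp2 on chromosome 11, averaged 18.3 ± 1.88 CPM in KO livers and 21.9 ± 3.68 CPM in WT livers (SD, n = 6 each; log2 fold change -0.26 ± 0.11 SE). Gm4951, in the same region of chromosome 18 as Iigp1, averaged 131 CPM in KO livers and 139 CPM in WT livers (log2 fold change -0.08 ± 0.07 SE). F830016B08Rik, of the same region, had 9.64 CPM in KO and 14.5 CPM in WT (-0.59 ± 0.32 SE). The low-count genes Gm12250 (-0.65 ± 0.35 SE), 9930111J21Rik2 (-0.59 ± 0.29 SE), Gm5431 (-0.54 ± 0.48 SE) and Gm4841 (-0.42 ± 0.22 SE) had means of 0.553 to 1.31 CPM in KO and 0.811 to 2.06 CPM in WT. Several of these share sequence, so their counts are uncertain. Irgq, a divergent relative not known as an interferon target, had the one positive value (log2 fold change 0.31 ± 0.12 SE; 26.3 CPM in KO and 21.1 CPM in WT).

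The guanylate-binding proteins are larger interferon-inducible GTPases that act on the same vacuoles. Of 11 measured, 5 fell, 0 rose and 6 did not pass (edgeR), with a median log2 fold change of -0.71. They were Gbp7 (-1.04 ± 0.15), Gbp10 (-1.59 ± 0.26), Gbp9 (-0.71 ± 0.14), Gbp3 (-1.49 ± 0.29) and Gbp6 (-1.06 ± 0.25), with SE and an edgeR Benjamini-Hochberg adjusted p from 0.00860 to 0.0388. Gbp4 stood at -0.50 ± 0.17 and did not pass (adjusted p = 0.110). These genes have close copies too, and Gbp4, Gbp8 and Gbp9 share exonic bases, so their reads are uncertain. Without KO library 6, WT library 2, WT library 4 or WT library 5, 2, 2, 1 and 2 of them were called. The medians of the families, -0.73 and -0.71, are set side by side as values, and whether the families differ was not tested.

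Of the interferon gamma pathway, the ligand gene Ifng had no row in the table. The receptor gene Ifngr1 had a log2 fold change of -0.01 ± 0.11 and Ifngr2 of -0.30 ± 0.12, and the kinase genes Jak1 and Jak2 had -0.10 ± 0.07 and -0.20 ± 0.07 (SE; none passed). Irf1, the gene of a transcription factor that drives the family's interferon response, fell. Irf1 stood at 17.0 to 28.6 CPM in KO and 25.0 to 45.1 CPM in WT, with 4 of 6 KO libraries below all WT libraries (log2 fold change -0.67 ± 0.16 SE; edgeR, Benjamini-Hochberg adjusted p = 0.0408). Exonic bases of Irf1 overlap Gm17334 on the other strand (mean 0.718 CPM in KO and 1.37 CPM in WT). Of 9 measured genes listed for this pathway 1 fell, and the median log2 fold change was -0.10. The call of Irf1 was lost on leaving out any of KO libraries 2, 3, 5 and 6 and WT libraries 2 to 5. In each case 3 genes of the list were lower at an unadjusted p under 0.05. Of all genes, 2519 to 3236 stood under that cutoff in these fits, in either direction (edgeR). With the replicate number as a block Irf1 did not pass (edgeR, Benjamini-Hochberg adjusted p = 0.0529).

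On the type I side, 3 of 8 measured signalling genes fell: Irf9 (-0.45 ± 0.07), Irf7 (-0.92 ± 0.16) and Usp18 (-1.14 ± 0.28), with an edgeR Benjamini-Hochberg adjusted p of 0.00861, 0.0176 and 0.0496. Irf9 and Irf7 encode transcription factors of the interferon response and Usp18 a brake on the receptor. The call of Usp18 was lost with total counts only (adjusted p = 0.0736) and without the filter on low counts. It was also lost on leaving out any of KO libraries 1, 3, 5 and 6 and WT libraries 1 to 5 (edgeR, Benjamini-Hochberg adjusted p between 0.0659 and 0.116). Without WT library 4 only Irf9 was called (adjusted p = 0.0337), with Irf7 at 0.0502. The receptor genes Ifnar1 (-0.05 ± 0.06) and Ifnar2 (-0.31 ± 0.08) did not pass, and Ifnb1 had no row.

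Of 21 measured targets of interferon gamma outside the GTPase families, all had a negative log2 fold change (median -0.30), 3 fell and 18 did not pass (edgeR). Tap1, a peptide transporter gene of antigen presentation that overlaps Psmb9, fell by 0.46 ± 0.09, Nlrc5, the activator of MHC class I genes, which overlaps 9330175E14Rik, by 0.58 ± 0.12 and the immunoproteasome subunit gene Psmb10 by 0.37 ± 0.08 on the log2 scale (SE; Benjamini-Hochberg adjusted p = 0.0208, 0.0288 and 0.0342). The chemokine genes Cxcl9 (-0.70 ± 0.32) and Cxcl10 (-0.85 ± 0.46) did not pass. The list gave 1, 1, 0, 0 and 5 calls without KO library 6 and without WT libraries 2, 4, 5 and 6 (edgeR). In each case of 0, 6 were lower at an unadjusted p under 0.05. Of all genes, 2519 and 2552 stood under that cutoff without WT library 4 and without WT library 5, in either direction.

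Among 23 genes best known as targets of type I interferon, 12 fell and 11 did not pass (edgeR), with a median log2 fold change of -0.81 and examples in Ddx58 (-0.46 ± 0.07), Zbp1 (-1.07 ± 0.16) and Oasl1 (-0.72 ± 0.12). Without KO library 6 and without WT libraries 2, 4 and 5 there were 4, 4, 3 and 5 calls. Most interferon targets answer to both types of interferon, and the counts of these lists do not separate them. Of 14 genes of autophagy conjugation and cargo marking, which load the GTPases onto vacuoles, none passed with edgeR, DESeq2 or limma-voom. At an unadjusted p under 0.05 (edgeR) there were 3, beside 3184 of all 15000 genes. The median log2 fold change of the 14 genes was 0.00. Without WT library 6, 1 was called, the antibody receptor gene Trim21 (adjusted p = 0.0455).

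Most macrophage markers had a lower level in KO livers, as did the GTPase genes. Of 18 markers measured, 16 had a negative log2 fold change with a median of -0.63, and 3 fell (edgeR, Benjamini-Hochberg adjusted p under 0.05), namely Adgre1, which encodes F4/80, and the Kupffer cell genes Vsig4 and Cd5l. Their summed level was 222 to 432 CPM in KO livers (median 270) and 372 to 591 CPM in WT livers (median 456), and none was at 0 in all libraries. In 5 of 6 KO libraries it lay below all WT libraries. KO library 4, at 432 CPM, lay inside the WT range. In that library Irgm1, Irgm2, Igtp, Iigp1 and Tgtp1 were below all WT libraries, and Tgtp2, at 1.73 CPM, was at its highest among KO libraries and above 3 WT libraries. Pearson's r between a macrophage score, the mean standardised log2 CPM of the markers, and the mean of the 6 members was 0.82 over the 12 libraries and 0.49 after the group means were removed. By member, the value after removal of the group means was -0.07 for Irgm1, 0.07 for Iigp1, 0.34 for Irgm2, 0.36 for Igtp, 0.52 for Tgtp1 and 0.66 for Tgtp2.

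**Figure D3:**
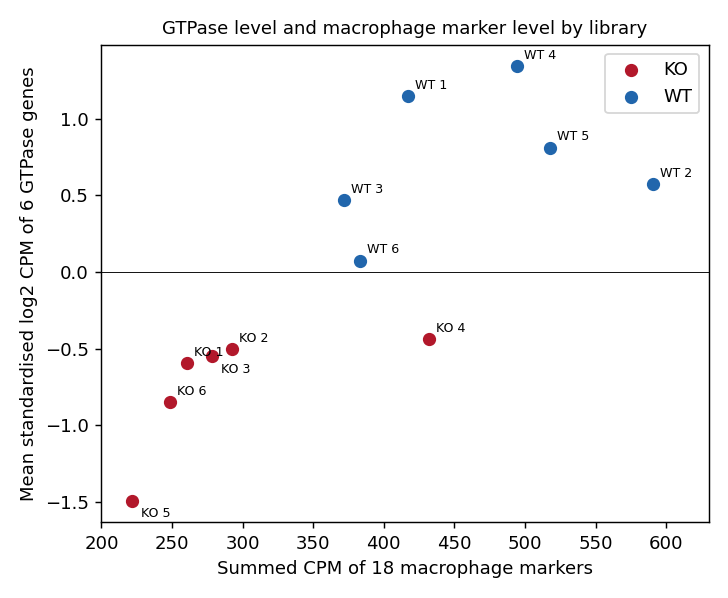
Mean standardised log2 CPM of the 6 immunity-related GTPase genes (vertical axis) against the summed CPM of 18 macrophage markers (horizontal axis), 1 point per library. The KO points lie lower than all WT points on the vertical axis, and 5 of the 6 lie to the left of all WT points, KO library 4 (432 CPM) being the exception.

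With the macrophage score as a covariate, none of the 6 members and none of all 15000 genes passed (edgeR, 4 members and 1652 genes at an unadjusted p under 0.05), which ends the 3 calls. The log2 fold changes in that fit were -0.65 ± 0.24 for Irgm2, -0.68 ± 0.27 for Igtp, -0.46 ± 0.15 for Iigp1, -0.38 ± 0.16 for Irgm1, -0.47 ± 0.41 for Tgtp1 and -0.01 ± 0.33 for Tgtp2 (SE; Benjamini-Hochberg adjusted p between 0.312 and 0.993 by edgeR). The score itself was lower in KO in 5 of 6 libraries, so score and genotype cannot be fully told apart in that fit.

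Of the other cell types, T and NK cell markers, whose cells are the usual source of interferon gamma, had 9 of 16 members in the table, at a summed 4.90 to 6.66 CPM in KO and 4.72 to 9.12 CPM in WT, and the defining genes Cd3d, Cd3e and Ncr1 had no row. Of the 7 tested, 6 had a negative log2 fold change (median -0.66) and 1 fell, the kinase gene Lck. The other tested marker, Cd4 (0.41 ± 0.31 SE), averaged 3.69 CPM in KO and 2.79 CPM in WT, a large part of the summed levels. The 4 markers called lower (Lck and 3 of macrophages) became 10 without KO library 4 and 0 without WT library 2 or WT library 4 (edgeR). In the fits with 0, 23 and 16 were lower at an unadjusted p under 0.05. Of all genes, 2613 and 2519 stood under that cutoff there, in either direction. Neutrophil markers summed to 7.55 to 18.6 CPM in KO and 9.83 to 29.3 CPM in WT, with 5 of 8 measured, all 5 with a negative log2 fold change (median -0.63) and none called by edgeR. B and plasma cell markers summed to 9.31 to 25.2 CPM in KO and 13.1 to 35.3 CPM in WT, and all 8 had a negative log2 fold change (median -0.48) with none called. Endothelial markers summed to 280 to 374 CPM in KO and 286 to 388 CPM in WT. Stellate cell markers summed to 258 to 553 CPM in KO and 292 to 578 CPM in WT, and cholangiocyte markers to 44.6 to 134 CPM in KO and 36.1 to 99.7 CPM in WT. No marker of endothelium, stellate cells or cholangiocytes was called, and the median log2 fold change was -0.15 for endothelium, 0.12 for stellate cells and 0.43 for cholangiocytes. Of 6 adipocyte markers 2 were measured, at a summed 6.84 to 45.5 CPM in KO and 10.97 to 23.6 CPM in WT. They were Cfd (log2 fold change 1.02 ± 0.91 SE) and Adrb3 (-0.84 ± 0.43 SE), and neither was called by edgeR. The other adipocyte genes, Adipoq, Plin1, Lep and Retn, had no row. The part of any of these cells in the results was not tested.

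**Figure D4:**
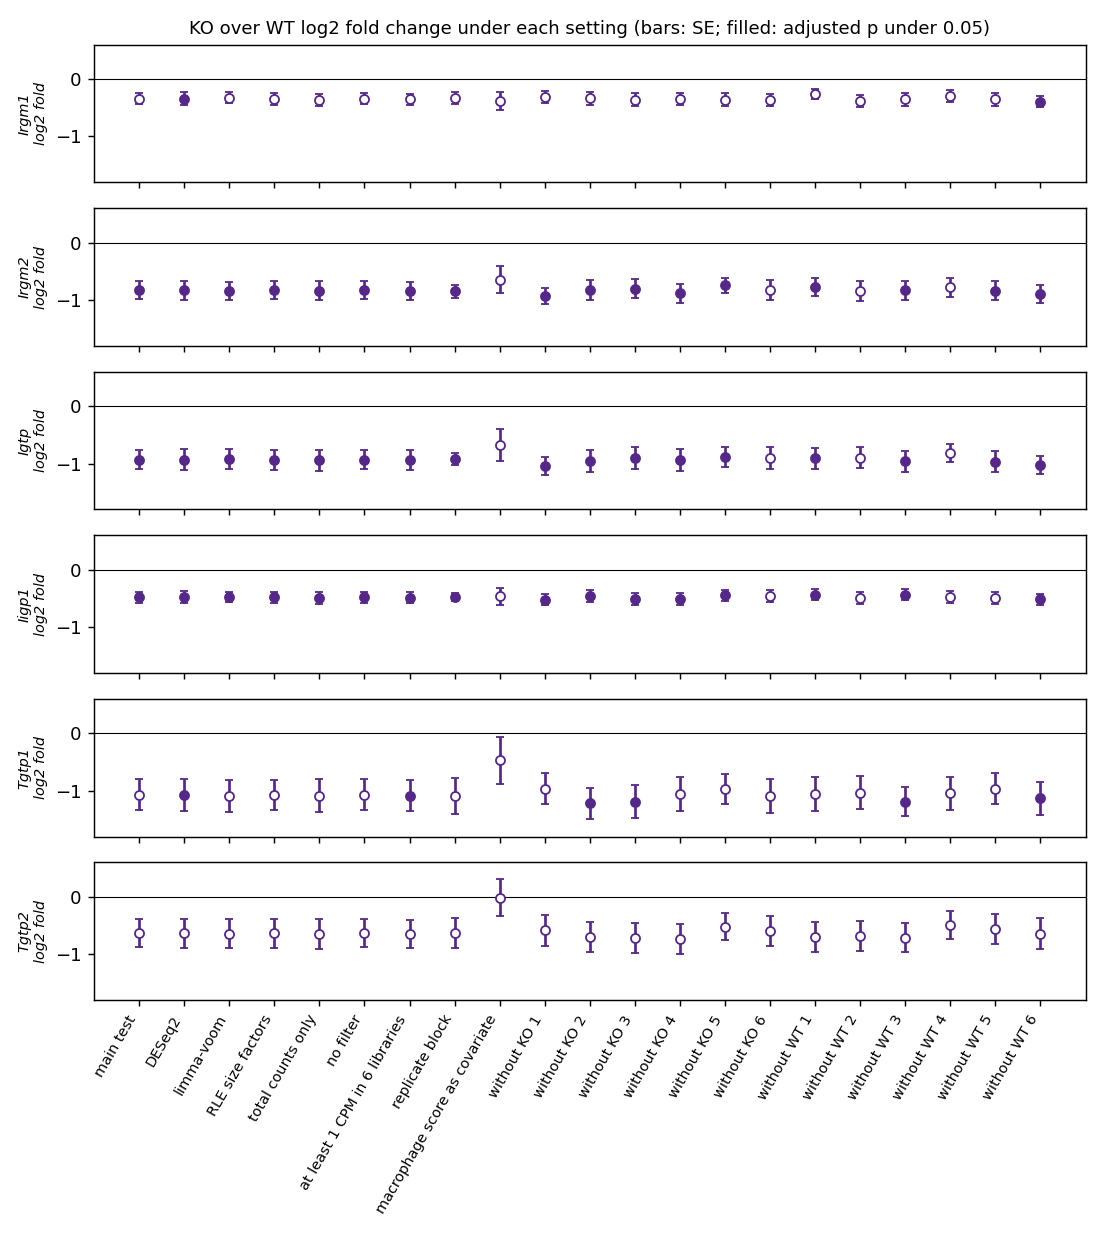
Log2 fold change of KO over WT with its SE for each member (1 panel each) in the main test, under 8 other settings and without each of the 12 libraries, filled where the adjusted p was under 0.05. All points lie below 0; Tgtp2 comes nearest to it (-0.01) with the macrophage score as a covariate.

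The authors' deposited table was made from the same reads and is no separate evidence. In it 834 of 15140 genes had an adjusted p under 0.05, among them 3 members. These were Irgm2 (log2 fold change -0.82, adjusted p = 0.000684), Igtp (-0.92, adjusted p = 0.00302) and Iigp1 (-0.47, adjusted p = 0.0276), the members that passed with edgeR. Irgm1 (-0.33, adjusted p = 0.0538), Tgtp1 (-1.07, adjusted p = 0.0539) and Tgtp2 (-0.63, adjusted p = 0.279) did not pass in the authors' deposited table. With DESeq2 as run here Irgm1 and Tgtp1 passed (Benjamini-Hochberg adjusted p = 0.0309 and 0.00411), and 1210 of all genes were called. Why the DESeq2 results differ was not tested.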

How the data were processed

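PolyA-selected liver RNA was sequenced. The counts in the deposited table are whole reads per gene that the authors had not normalized, per the file headers and the values. Beside them the deposited table holds the authors' comparison under DESeq2's column names: a mean signal, a log2 fold change, its standard error, a test score and the raw and adjusted p-value. Per the submitters' processing notes FastQC, Trimmomatic, HISAT2, SAMtools, featureCounts and DESeq2 were used with build GRCm38, without versions. Annotation release, strand setting and counting of shared reads are not stated there.

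Of 15344 rows, 204 repeated a gene and were left out. Names missing from the file came from GENCODE M21, which lacked 13 of the genes. The fit over 15000 genes used edgeR 4.0.16 (R 4.3.3, quasi-likelihood F test, TMM, filterByExpr, robust), two-sided with a Benjamini-Hochberg threshold of 0.05. It was also run on simulated data, and the outcome of that run is not given here. The SE is the unshrunk log2 fold change divided by the square root of F. Log2 CPM used a prior count of 2. Alternatives were DESeq2 1.42.0, limma-voom (limma 3.58.1), RLE factors, total counts, other filters, a replicate block, a macrophage score and each library left out. Sums of copies and the joint promoter motif were chosen after seeing the data. Named were all members, the other family genes and up to 6 genes per list with the smallest p, and the 5 genes most like the members. Phb, Ifngr1, Cxcl9 and Cxcl10 were chosen by role after their values were seen. Members and lists were chosen with earlier results of these data known, and no list was tested as a set. In the interferon gamma pathway list, 1 gene is not reported here and enters no list count.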

Additional observations from a re-analysis of the deposited data

Results flagged for a closer look

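Of 100 groups of 6 libraries examined (the 6 members and the other named genes, KO and WT), 5 held a library far from the rest, where chance gives about 5. None concerned a member. The first value given is the distance from its neighbour as a share of the group's whole range on the log2 scale. KO library 1 was high for Jak2 (0.674; 21.9 CPM against 18.1 to 19.2) and KO library 2 was low for Tap1 (0.730; 29.6 CPM against 36.5 to 39.4). WT library 4 was high for Gm12250 (0.732; 3.49 CPM against 1.56 to 1.94). WT library 6 was low for Gbp7 (0.668; 17.0 CPM against 24.7 to 29.7) and Ifit1 (0.738; 9.90 CPM against 18.01 to 22.3).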

How the results depend on the processing

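The number of members called, 3 in the main test, was 5 with DESeq2, 0 with a macrophage score as a covariate (edgeR, 4 at an unadjusted p under 0.05) and 0 to 5 when each library was left out. The number of all genes called, 396, was 1210 with DESeq2, 257 with total counts only, 0 with the macrophage score (edgeR, 1652 at an unadjusted p under 0.05) and 25 to 700 when each library was left out. The interferon, GTPase and autophagy lists, without the 6 members, held 24 called genes, 0 with the macrophage score and 5 to 29 when each library was left out. Cell type markers called lower numbered 4, 14 with DESeq2 and 0 to 10 when each library was left out. The difference in mean total count, KO minus WT, was 614100, and -478800 to 1617000 when each library was left out. The log2 fold change changed sign with the macrophage score for Irgq (-0.092), Irf8 (0.15), Stat2 (-0.19), Cd274 (0.064), Map1lc3b (0.19) and Gm5431 (0.81), and without KO library 5 for Stat2 (-0.014, in a range up to 0.13 when each library was left out), and the cause was not tested. With the replicate number as a block, 3 members and 374 genes were called. Same-numbered KO and WT libraries had a correlation of deviations from -0.23 to 0.43, and 1 of 6 KO libraries correlated best with its own number. No clear pairing by number was seen, and pairing was not tested. The low counts of Tgtp1 and Tgtp2 limit what could be seen of them.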
